A study of Macaca mulatta with 6 samples.

Results

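The genes described here are the neutrophil-recruiting CXC chemokines and their receptors in tracheal tissue of rhesus monkeys (Macaca mulatta). Members were the rows of the gene count table whose symbol equalled one of 10 names: CXCL1, CXCL2, CXCL3, CXCL5, CXCL6, CXCL8, PF4V1, CXCL17, CXCR1 and CXCR2. Of these 10 names 6 matched a row, among 28536 rows in all. CXCL2, CXCL3, CXCL5 and CXCR2 matched no row and were not analysed here. The names were chosen by measured values: CXCL1, CXCL6 and PF4V1 had higher counts in the Oxy@Lipo/Gel group of these same libraries. Therefore the differences of the members between the groups are a description and support nothing.

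The study tested lubricated catheters in a model of endotracheal intubation. The 3 control libraries came from tracheal tissue after normal saline, and the 3 Oxy@Lipo/Gel libraries from tracheal tissue after a tracheal lubricant with an Oxy@Lipo/Gel coating, under general anaesthesia with intubation. Whether intubation was also done in the control animals is not stated in the labels, which give no age, sex or strain either. Replicates are called biosamples without a statement that each was a separate animal, so a p-value measures only the spread between these libraries, which may be technical.

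Chemokines of the ELR class carry a short glutamate-leucine-arginine motif ahead of their first cysteine, and in human they act on the receptors CXCR1 and CXCR2, which draw neutrophils out of blood toward injured or infected mucosa. Airway epithelium, glands, fibroblasts and macrophages release them after signals such as IL-17, IL-1 and TNF, largely through the transcription factor NF-kB. CXCL1, CXCL6 and CXCL8 (interleukin-8) belong to this class. PF4V1, a variant of platelet factor 4, and CXCL17, a mucosal chemokine linked in human and mouse to monocytes and dendritic cells, are relatives that lack the ELR motif in human. The name of the class therefore covers 3 of the 5 ligands measured.

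The libraries held 17097177 to 23405294 counts. A count of 3 corresponded to 0.125 to 0.204 CPM (counts scaled to TMM library sizes, per 1e6), which was taken as the floor of detection for counting error. In the test across all genes (edgeR quasi-likelihood test, Benjamini-Hochberg adjusted p under 0.05), 287 of 18676 genes tested were called, 1.54%. Of all tested genes 0.851% were called higher and 0.685% lower in Oxy@Lipo/Gel. The median log2 fold change of all tested genes was -0.04.

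Of the 6 members with a row, 5 had enough counts to be tested, and 3 of these (CXCL1, CXCL6 and PF4V1) were called higher, the calls for which the group of names was chosen. CXCL8 and CXCL17 were not called, and no member was called lower. The count depended on single libraries. Leaving out control replicate 1, leaving out control replicate 3 and leaving out Oxy@Lipo/Gel replicate 2 each gave 0 called members, and in those fits edgeR called 0 of all genes tested (3189, 4858 and 2271 genes had an unadjusted p under 0.05). In each of those 3 fits 4 members had an unadjusted p under 0.05 and a rise. When Oxy@Lipo/Gel replicate 3 was left out, CXCL1 alone was called. When control replicate 2 or Oxy@Lipo/Gel replicate 1 was left out, the same 3 members were called.

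CXCL1, a chemokine also known as GRO-alpha that acts mainly on CXCR2 in human, measured 3.48, 3.80 and 3.00 CPM in control replicates 1, 2 and 3. In Oxy@Lipo/Gel replicates 1, 2 and 3 it measured 54.5, 31.7 and 23.8 CPM. The groups did not overlap, and the lowest Oxy@Lipo/Gel library lay well above the highest control library. CXCL1 was 1 of 4 members, of 5 tested, with every Oxy@Lipo/Gel library above every control library. Of all tested genes 12.2% had this pattern, 17.7% had the opposite one, and 29.9% had groups without overlap in either direction. The control libraries were alike, with a highest level 1.27 times the lowest, while the Oxy@Lipo/Gel libraries spread over 2.29 times. Its log2 fold change was 3.42 ± 0.35 (SE), and it ran from 3.02 to 3.65 with each library left out.

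CXCL6, which acts on both CXCR1 and CXCR2 in human and is made by epithelial and stromal cells, measured 2.00, 3.80 and 0.809 CPM in control replicates 1, 2 and 3. It measured 57.7, 50.6 and 33.4 CPM in the Oxy@Lipo/Gel replicates, again with no overlap. Its log2 fold change of 4.45 ± 0.56 (SE) was above that of each other member, and it ran from 4.03 to 5.05 with a library left out. Unlike for CXCL1, the wider relative spread lay in the control group, where the highest library had 4.70 times the level of the lowest, against 1.73 times in Oxy@Lipo/Gel.

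PF4V1, the platelet factor 4 variant, had the fewest counts of the tested members. Its counts were 6, 4 and 6 in control replicates 1, 2 and 3, and 65, 65 and 50 for Oxy@Lipo/Gel. In CPM this was 0.273 ± 0.0122 and 2.71 ± 0.0303 (mean ± SD, n = 3 in each group). The groups did not overlap, and both were tight. The coefficient of variation between the Oxy@Lipo/Gel libraries was 1.12%, while counting error alone gives 12.4% to 14.1% at these counts, so the SD understates the error of the level. From the counts summed over each group, 16 against 180, the ratio was 9.94 with an exact 95% interval of 5.96 to 17.8, which covers counting error only. The log2 fold change was 3.28 ± 0.30 (SE) and stayed between 3.24 and 3.34 with each library left out.

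CXCL8, the best known neutrophil chemokine in human, measured 0.827, 2.38 and 3.00 CPM in control replicates 1, 2 and 3. It measured 8.68, 4.85 and 4.56 CPM in the Oxy@Lipo/Gel replicates. The groups did not overlap, but the gap between control replicate 3 and Oxy@Lipo/Gel replicate 3 was narrow beside the spread within each group. Its log2 fold change was 1.55 ± 0.53 (SE), and it was not called by edgeR, though it was by DESeq2. It ran from 1.16 without control replicate 1 to 1.93 without control replicate 3.

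CXCL17 was the highest member in every library, both in CPM and per length, and stood at 304, 89.6 and 251 CPM in control replicates 1, 2 and 3 and at 304, 267 and 245 CPM in the Oxy@Lipo/Gel replicates. The groups overlapped, and control replicate 2 stood alone below the other 5 libraries. The log2 fold change was 0.34 ± 0.43 (SE) and became -0.04 without control replicate 2. The same library was low in markers of the surface epithelium, in which CXCL17 is known to be made: the mean log2 CPM of 12 secretory and surface epithelium markers was -1.88 there, relative to its mean over the 6 libraries, and 0.06 to 0.79 in the other 5. The same measure for multiciliated cell markers was -1.95 in that library. That library was also the lowest of the 6 in submucosal gland markers (-1.96) and neutrophil markers (-1.48), and the highest in basal epithelium markers (1.43). The part of these cell types in the CXCL17 level was not tested.

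**Figure D1:**
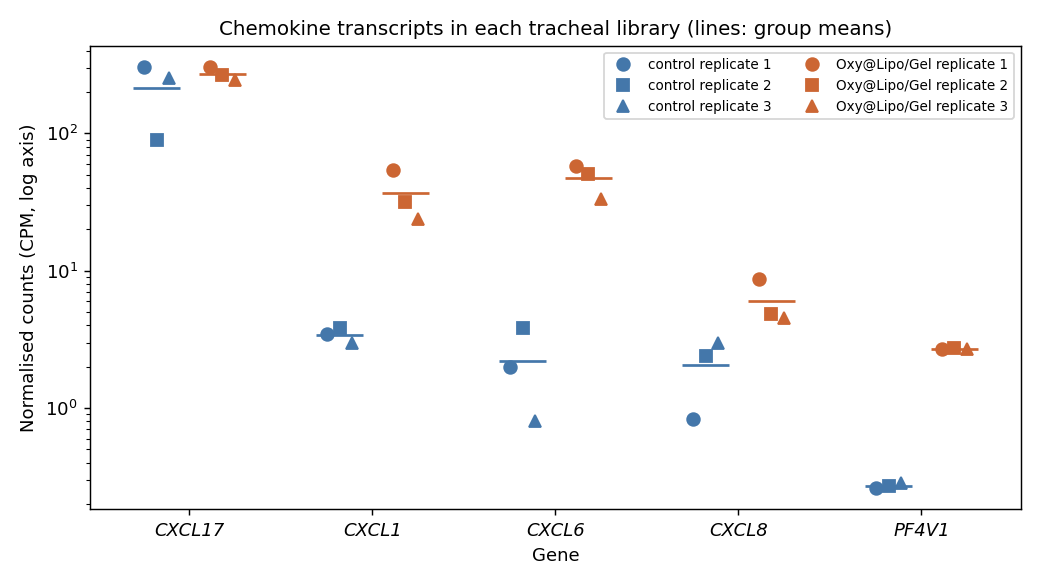
Levels of the 5 tested members (CPM, log axis) in each of 3 control libraries (blue) and 3 Oxy@Lipo/Gel libraries (orange), with lines at the group means and 1 marker shape per replicate number. CXCL1, CXCL6, CXCL8 and PF4V1 do not overlap between the groups, while CXCL17 overlaps and is lowest in control replicate 2, at 89.6 CPM.

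CXCR1, a receptor for CXCL8 and CXCL6 on neutrophils, was at or under the floor in every library. It had 1 count in each control library and 1, 1 and 0 counts in Oxy@Lipo/Gel replicates 1, 2 and 3, so it was not tested and no fold is given. CXCR1 was therefore not detectable at this depth in any of the 6 libraries, and CXCR2 was not analysed here, while the ligands CXCL1 and CXCL6 were at 444 to 1391 counts per Oxy@Lipo/Gel library. In bulk tissue, fewer cells of a type and less RNA per cell cannot be told apart.

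**Figure D2:**
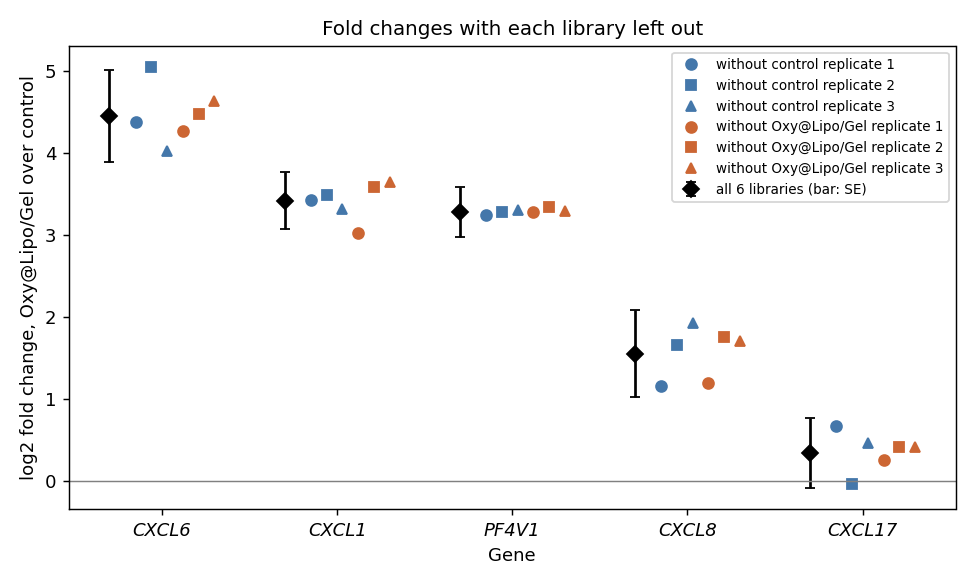
Fold change between groups on the log2 scale for the 5 tested members, with all 6 libraries (black, bar is SE) and with each library left out (blue for a control library, orange for an Oxy@Lipo/Gel library). PF4V1 stays between 3.24 and 3.34, whereas CXCL8 moves between 1.16 and 1.93 and CXCL17 reaches -0.04 without control replicate 2.

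Levels were compared between genes per length, with the deposited FPKM (fragments per kilobase of gene length and per library total). In the control libraries CXCL1 was at 2.38 ± 0.148 FPKM, CXCL6 at 1.41 ± 0.820, CXCL8 at 1.24 ± 0.716 and PF4V1 at 0.353 ± 0.0472 (mean ± SD, n = 3). CXCL1 and PF4V1 were at the top and the bottom of these 4 in each control library, while CXCL6 and CXCL8 did not differ beyond their spread and changed places in control replicate 3. In the Oxy@Lipo/Gel libraries CXCL6 was at 33.1 ± 11.2 FPKM, CXCL1 at 27.0 ± 14.0, CXCL8 at 3.78 ± 1.76 and PF4V1 at 3.59 ± 0.319 (mean ± SD, n = 3). Neither the upper nor the lower pair differed beyond its spread, although CXCL6 was above CXCL1 within each of the 3 libraries. CXCL17 was at 196 ± 112 and 247 ± 48.0 FPKM in the control and Oxy@Lipo/Gel groups.

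The makeup of the pool was also described. Since the names were chosen for the rises of CXCL1, CXCL6 and PF4V1, differences in these shares partly restate that choice and support nothing. The summed FPKM of CXCL1, CXCL6, CXCL8 and PF4V1 was 4.84, 6.10 and 5.22 in control replicates 1, 2 and 3. It was 95.6, 64.3 and 42.6 in the Oxy@Lipo/Gel replicates. CXCL6 made up 29.2%, 36.6% and 11.3% of this sum in the control libraries and 45.3%, 54.4% and 49.5% in the Oxy@Lipo/Gel libraries, without overlap. CXCL8 made up 10.7%, 20.4% and 37.4% in the control libraries and 6.07%, 4.64% and 6.03% in the Oxy@Lipo/Gel libraries, also without overlap. The share of CXCL1 overlapped between the groups, from 38.1% to 52.8% and from 35.4% to 44.5%. The ratio of CXCL6 to CXCL1 in FPKM was 0.553, 0.961 and 0.259 in the control libraries and 1.02, 1.54 and 1.35 in the Oxy@Lipo/Gel libraries. CXCL17 exceeded the summed level of the other 4 ligands 11.3 to 57.9 times in the control libraries and 3.11 to 4.75 times in the Oxy@Lipo/Gel libraries.

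**Figure D3:**
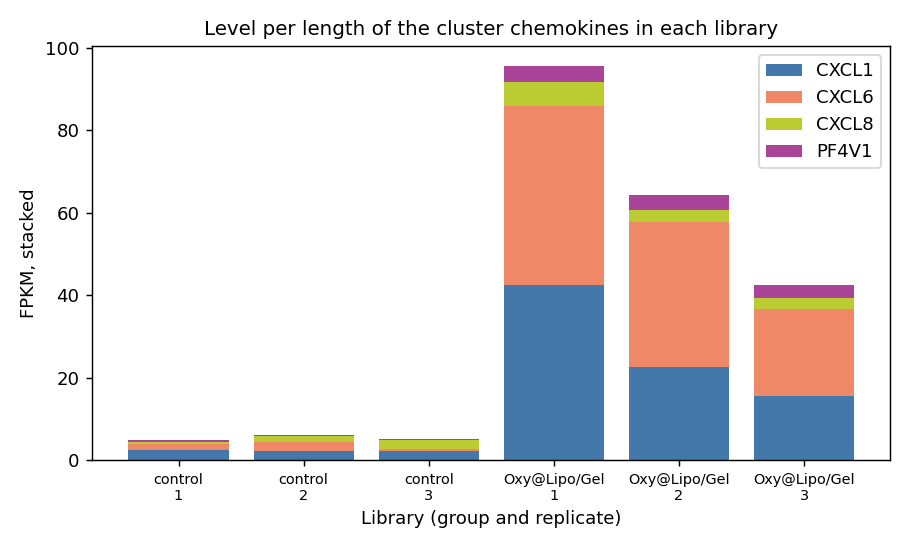
Stacked level per length (FPKM) of CXCL1, CXCL6, CXCL8 and PF4V1 in each library. The bars reach 4.84 to 6.10 for the 3 control libraries and 42.6 to 95.6 for the 3 Oxy@Lipo/Gel libraries, where CXCL1 and CXCL6 fill most of each bar.

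Within the Oxy@Lipo/Gel group CXCL1, CXCL6, CXCL8 and CXCL17 were all highest in replicate 1 and lowest in replicate 3, and PF4V1 was nearly level, with replicate 2 slightly above replicate 1. Within the control group CXCL1 and CXCL6 shared an order, highest in replicate 2 and lowest in replicate 3. CXCL8 and PF4V1 shared another, highest in replicate 3 and lowest in replicate 1, and CXCL17 was highest in replicate 1 and lowest in replicate 2.

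In the RefSeq rhesus assembly T2T-MMU8v2.0, used here only for the order of genes, the 4 members that did not overlap between the groups, CXCL1, PF4V1, CXCL6 and CXCL8, follow each other as consecutive protein-coding genes, and CXCL3, PPBP and PF4 lie on the other side of CXCL1. CXCL17 and CXCR1 lie on other chromosomes. PPBP, which encodes a further ELR chemokine released by platelets, had 2, 0 and 2 counts in the control libraries and 0 in each Oxy@Lipo/Gel library. CXCL3 and PF4 have no row in the count table under these symbols and were not analysed here. Genes of this cluster arose by duplication and resemble each other, PF4V1 and PF4 most closely in human, and reads that fit more than 1 copy may have been assigned to either, so the split between copies is uncertain.

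Of the 10 protein-coding genes on each side of the stretch from CXCL3 to CXCL8, 9 were tested and 0 were called by edgeR. An unadjusted p under 0.05 was found for 2 of them, and DESeq2 called 2, BTC and EPGN. RASSF6, the next gene past CXCL8 and a Ras-association domain protein, measured 81.6 ± 36.6 and 43.5 ± 13.7 CPM (mean ± SD, n = 3 in each group). On the far side lie genes of EGF-receptor ligands. BTC, betacellulin, measured 13.6 ± 5.65 and 33.5 ± 12.2 CPM, AREG, amphiregulin, 2.68 ± 0.254 and 1.40 ± 0.802, EREG, epiregulin, 1.27 ± 0.752 and 1.26 ± 0.725, and EPGN, epigen, 1.75 ± 0.967 and 0.492 ± 0.160. Log2 fold changes of the 9 flanking genes ran from -1.79 for EPGN to 1.30 for BTC. In size the change of EPGN exceeded the 1.55 of CXCL8. Because CXCL1, CXCL6 and PF4V1 were chosen for their rises, their contrast with the flanking genes was largely set in advance.

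**Figure D4:**
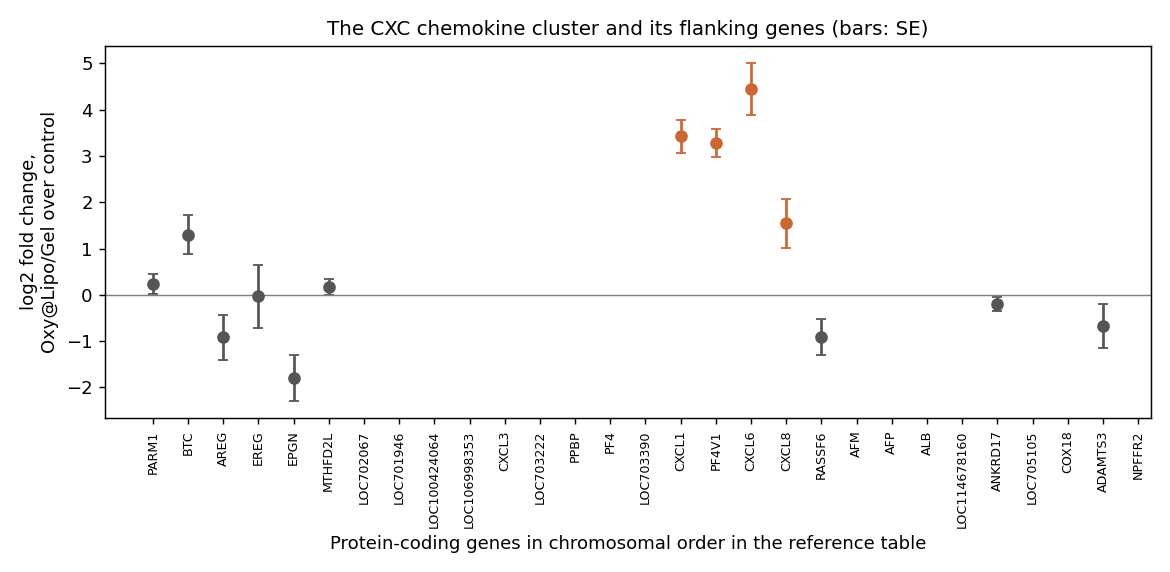
Fold change between groups on the log2 scale (bar is SE) for tested protein-coding genes in chromosomal order around the CXC chemokine cluster. Names without a point have no row in the count table or too few counts. The 4 cluster chemokines (orange), of which CXCL1, CXCL6 and PF4V1 were chosen for their rises, run from 1.55 to 4.45. The flanking genes (grey) run from -1.79 to 1.30.

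A row named CXCL1L carries a symbol that the reference tables do not list, and it is not a member. It had 107, 78 and 125 counts in the control libraries and 72, 73 and 59 in the Oxy@Lipo/Gel libraries. In CPM it measured 5.30 ± 0.645 and 3.08 ± 0.0874 (mean ± SD, n = 3 in each group), lower in every Oxy@Lipo/Gel library than in any control library. Its log2 fold change was -0.78 ± 0.23 (SE) and it was not called (edgeR adjusted p = 0.131).

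Other CXC chemokines gave 1 call in 6 tested genes, CXCL13, a chemokine that attracts B cells, at 0.387 ± 0.253 and 19.4 ± 12.4 CPM (mean ± SD, n = 3 in each group; edgeR adjusted p = 0.0411). With Oxy@Lipo/Gel replicate 1 left out, 2 genes of this list were called higher, CXCL13 and CXCL12 (log2 fold changes of 5.40 and 1.28, edgeR adjusted p = 0.0477 and 0.0286), and with any other library left out 0 were. The list median log2 fold change was 0.34. The interferon-induced CXCL9 and CXCL10, which act on CXCR3, had log2 fold changes of -0.99 and -0.62 and were not called. CXCL12, CXCL14 and CXCL16 had log2 fold changes of 0.89, 0.73 and -0.05. Among the other chemokine receptors and decoy receptors edgeR called 0 of 9 tested genes, with a median of -0.12 (2 had an unadjusted p under 0.05, and DESeq2 called 2). CXCR5, the receptor for CXCL13, had the smallest p and measured 0.233 ± 0.0993 and 3.36 ± 2.11 CPM (mean ± SD, n = 3 in each group; edgeR adjusted p = 0.0555). ACKR1, a decoy receptor of venular endothelium that binds ELR chemokines, measured 57.6 ± 27.9 and 27.3 ± 20.7 CPM with overlapping groups.

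Genes known to act upstream of ELR chemokines in human and mouse gave 0 calls in edgeR. The list of ligands and receptors of the IL-17, IL-1 and TNF families also held IL6, IL22 and IL22RA1. In this list 0 of 12 tested genes were called, with a median log2 fold change of -0.18. An unadjusted p under 0.05 was found for 4 of them, and DESeq2 called 1, IL17F. IL1R1, the signalling receptor of IL-1, had the smallest p at 61.3 ± 11.4 and 38.3 ± 7.26 CPM (mean ± SD, n = 3 in each group; edgeR adjusted p = 0.135). IL17A had 6 counts in Oxy@Lipo/Gel replicate 2 and 0 in each other library. IL17F measured 0.655 ± 0.328 and 1.60 ± 0.307 CPM without overlap and was not called (edgeR adjusted p = 0.149). IL1B had 7, 4 and 21 counts in the control libraries and 8, 11 and 4 in the Oxy@Lipo/Gel libraries, too few to be tested. TNF measured 0.697 ± 0.880 and 0.734 ± 0.421 CPM, and IL6 4.01 ± 3.65 and 1.99 ± 0.672. These 5 cytokine genes were named after their values were seen.

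Among 18 genes of the NF-kB pathway edgeR called 0 and the median log2 fold change was -0.12. Here 3 had an unadjusted p under 0.05, and DESeq2 called 2, NFKBIA and REL. NFKBIA, the NF-kB inhibitor and itself a target of NF-kB, had the smallest p. It measured 153 ± 34.8 and 71.0 ± 3.42 CPM (mean ± SD, n = 3 in each group), lower in every Oxy@Lipo/Gel library than in any control library, and its log2 fold change of -1.11 ± 0.20 (SE) had an edgeR adjusted p of 0.0550. NFKBIZ, which encodes IkB zeta, a cofactor for CXC chemokine induction by IL-17 in mouse and human cells, measured 87.9 ± 14.7 and 96.9 ± 22.1 CPM.

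On the neutrophil side, edgeR called 0 of 6 tested growth factor and growth factor receptor genes, with a median log2 fold change of 0.09, and CSF3, the granulocyte colony-stimulating factor, measured 5.87 ± 0.780 and 6.49 ± 1.72 CPM (mean ± SD, n = 3 in each group). In this list CSF2RA, a subunit of the GM-CSF receptor, had the smallest p (edgeR adjusted p = 0.212). Of the other neutrophil chemoattractant receptors it called 0 of 4, with a median of -0.13 and C5AR2, a receptor for complement C5a, at the smallest p (edgeR adjusted p = 0.207). C5AR1 was the 1 tested gene of this list with a log2 fold change above 0. It measured 23.0 ± 15.6 and 61.2 ± 22.8 CPM with overlapping groups (log2 fold change 1.41, edgeR adjusted p = 0.229). FPR1, the formyl peptide receptor of neutrophils and monocytes, had 6, 5 and 13 counts in control replicates 1, 2 and 3 and 1, 0 and 0 counts for Oxy@Lipo/Gel, too few to be tested. FPR2 had 4, 0 and 2 counts against 3, 8 and 7 and was not tested either. Of 13 adhesion genes edgeR called 0, with a median log2 fold change of 0.87. SELE, the endothelial E-selectin that slows neutrophils, measured 1.65 ± 1.41 and 0.537 ± 0.0538 CPM. Of 16 chemokine receptor signalling genes edgeR called 0, with a median of 0.08 and the smallest p for RAC2, a small GTPase of blood cells, at 4.91 ± 0.827 and 15.5 ± 6.84 CPM (edgeR adjusted p = 0.0838). In these lists an unadjusted p under 0.05 was found for 1, 1, 4 and 5 genes, and DESeq2 called 0, 0, 2 and 2.

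Of 21 neutrophil markers 17 had a row, 10 were tested, 3 were called higher (MMP9, LTF and MPO) and 0 lower, with a median log2 fold change of 0.73. Their summed level was 198 to 1090 CPM in the control libraries and 1250 to 1830 CPM in the Oxy@Lipo/Gel libraries. The gap between these sums rests largely on LTF. It measured 17.5, 6.25 and 11.1 CPM in control replicates 1, 2 and 3 and 204, 392 and 958 CPM in the Oxy@Lipo/Gel replicates. CSF3R and LCN2, the other large parts of the sums, overlapped between the groups. The count was 2 with Oxy@Lipo/Gel replicate 1 left out, 1 with control replicate 2 or Oxy@Lipo/Gel replicate 3 left out, and 0 with any other library left out. MMP9, a gelatinase of neutrophil granules and macrophages, rose from 7, 6 and 8 counts in the control libraries to 199, 148 and 81 counts for Oxy@Lipo/Gel. It was also the 1 called gene of 8 tested proteases and carriers that act on chemokines, a list with a median of 0.25. LTF, which is also a gland gene, had 403, 92 and 233 counts against 4916, 9308 and 17870, a different order of replicates from CXCL1. MPO, the myeloperoxidase of azurophil granules, had 312, 161 and 234 counts against 1356, 786 and 1883.

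The neutrophil markers not called lay at very different levels. Of all 10 tested neutrophil markers, called ones included, 8 had a log2 fold change above 0. MNDA and FCGR3A lay below 0, at -1.61 and -0.62, and were not called. MNDA measured 9.06 ± 6.10 and 2.98 ± 0.680 CPM and FCGR3A 0.708 ± 0.238 and 0.461 ± 0.265 CPM, both with overlapping groups. Several granule protease genes were at or near 0 in both groups. ELANE, neutrophil elastase, had 3, 0 and 4 counts in the control libraries and 9, 9 and 2 in the Oxy@Lipo/Gel libraries. MMP8, the collagenase of neutrophil granules, had 1 count in all 6 libraries together, in Oxy@Lipo/Gel replicate 1. PRTN3, proteinase 3, had 0, 1 and 1 counts in control replicates 1, 2 and 3 and 0 in every Oxy@Lipo/Gel library. AZU1, azurocidin, had 0, 2 and 1 counts against 6, 1 and 0. S100A8, a calgranulin abundant in neutrophils, measured 0.442 ± 0.231 and 0.594 ± 0.298 CPM (mean ± SD, n = 3 in each group), above the floor in every library. S100A9, its partner, measured 11.7 ± 5.92 and 33.2 ± 16.9 CPM with overlapping groups and was called by DESeq2 and not by edgeR. CSF3R, the receptor for CSF3, measured 481 ± 288 and 490 ± 91.9 CPM, and its lowest library was control replicate 2, the library low in surface epithelium markers. Genes of this paragraph were named after their values were seen.

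Platelet genes were read beside PF4V1. Of 11 platelet and megakaryocyte markers 10 had a row, 6 were tested and 1 was called higher, with a median log2 fold change of 0.67. This was GP1BB, a subunit of the platelet receptor for von Willebrand factor, which rose from 11.4 ± 2.03 to 37.7 ± 4.53 CPM (mean ± SD, n = 3 in each group; edgeR adjusted p = 0.0257). It was called with control replicate 2 or Oxy@Lipo/Gel replicate 1 left out, and with no other library left out. In human GP1BB lies just behind SEPTIN5 and shares read-through transcripts with it, so its counts are uncertain. GP6, the platelet collagen receptor, had 0, 0 and 1 counts in the control libraries and 29, 11 and 17 in the Oxy@Lipo/Gel libraries, and was not among the tested genes. ITGA2B measured 0.468 ± 0.543 and 1.39 ± 0.321 CPM, and TUBB1, the tubulin of platelets, 2.15 ± 1.39 and 2.89 ± 0.807. The summed level of the list was 23.6 to 74.0 CPM in the control libraries and 50.4 to 92.5 CPM in the Oxy@Lipo/Gel libraries, with overlap. The part of platelets in the PF4V1 level was not tested.

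**Figure D5:**
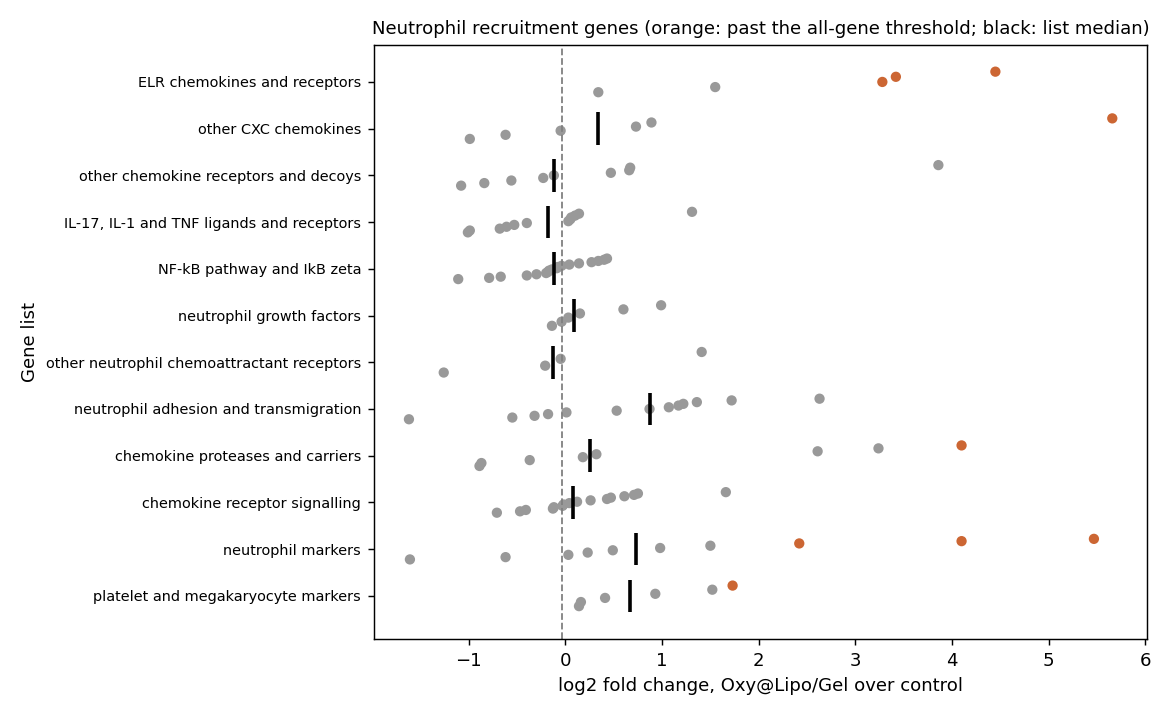
Fold changes between groups on the log2 scale for the tested members and for tested genes of 11 lists around them (1 point per gene, orange where past the all-gene threshold, black line at the median of each list other than the members, dashed line at the median of all tested genes, -0.04). The members' row is labelled by the ELR class but includes PF4V1 and CXCL17, which lack the ELR motif in human. CXCL13, MMP9, LTF, MPO and GP1BB are the called genes outside the members, MMP9 in a pair of lists.

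Markers of several other cell types differed between the groups beside CXCL1, CXCL6 and PF4V1. Of 11 tested submucosal gland markers 5 were called higher (PRR4, LTF, ODAM, CA2 and DMBT1), with a summed level of 669 to 1660 CPM in the control and 10000 to 30400 CPM in the Oxy@Lipo/Gel libraries. Of 8 B cell markers 6 were called higher, BLK with the smallest p, at sums of 3.66 to 4.35 and 23.5 to 70.9 CPM. Of 9 chondrocyte markers 3 were called higher, CNMD, COL11A1 and HAPLN1, at 57.0 to 99.0 and 256 to 523 CPM. Of 12 surface epithelium markers 1 was called higher, BPIFB1, and sums overlapped. Each of these counts was 0 with Oxy@Lipo/Gel replicate 2 left out, and also with replicate 1 or replicate 3 of the control left out. With control replicate 2 left out they were 0 for gland, 0 for B cell, 2 for chondrocyte and 2 for surface epithelium markers, and with Oxy@Lipo/Gel replicate 3 left out they were 0, 3, 0 and 0. In edgeR the count was 0 for 12 tested macrophage and monocyte markers, 7 basal, 8 multiciliated, 8 smooth muscle and 8 endothelial markers. An unadjusted p under 0.05 was found for 4, 2, 0, 8 and 2 of these, and DESeq2 called 3, 0, 0, 8 and 0. With Oxy@Lipo/Gel replicate 1 left out, edgeR called 6 smooth muscle markers higher. Among these lists LYZ, TP63, RSPH1, MYOCD and KDR had the smallest p, with edgeR adjusted p-values of 0.0525, 0.189, 0.655, 0.0780 and 0.176. Macrophage and monocyte sums of 335 to 1010 and 6040 to 16000 CPM rest on LYZ, which is also a gland gene. In Oxy@Lipo/Gel replicates 1, 2 and 3, over which CXCL1, CXCL6 and CXCL8 were highest in replicate 1 and lowest in replicate 3, the mean log2 CPM of the chondrocyte markers, relative to their mean over the 6 libraries, was 1.53, 1.33 and 0.82. The same measure was 1.76, 1.85 and 0.39 for B cell markers, 0.99, 1.12 and 2.16 for gland markers and -0.83, 2.05 and 2.45 for smooth muscle markers. Multiciliated cell markers also fell from replicate 1 to replicate 3, at 0.70, 0.50 and -0.48. Neutrophil markers were nearly level at 0.68, 0.64 and 0.66, and surface epithelium markers rose, at 0.38, 0.58 and 0.79. The part of these cell types in the chemokine levels was not tested.

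The 3 called members were also compared with 14117 other named genes for the likeness of their pattern, by Pearson correlation of log2 CPM. Genes compared had a mean of at least 1 CPM over the 6 libraries, which high values in 1 group alone could reach. Since the libraries fall into 2 groups, r here mostly reflects the difference between them and is a description. The genes most like CXCL1 were MMP9, TMEM88B, ANKRD62 and ACTG1, with r from 0.9921 to 0.9959 over 6 libraries. MMP9 and ANKRD62 had control means of 0.364 and 0.226 CPM, so they passed the level only through the Oxy@Lipo/Gel group. Those most like CXCL6 were PLXDC2, IQGAP3, PRSS12 and ANKRD33B, with r from 0.9901 to 0.9972. Those most like PF4V1 were CTSH, CHPF, AP3M2 and SEL1L, with r from 0.9970 to 0.9981. Of these, MMP9 encodes a protease that trims ELR chemokines in human and CTSH encodes cathepsin H. The lists of nearest genes had no gene in common.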

How the data were processed

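Tracheal RNA was measured in 6 libraries, 3 in each of 2 groups taken from the labels. Per the labels' protocols, libraries were poly(A)-selected, strand-specific and paired-end. The deposited count table holds whole-number gene counts, and the deposited FPKM table holds values per length. Where every library had 5 or more counts (17796 genes), counts and FPKM gave 1 whole-number gene length in 17796 (within 0.01 base), so both tables hold the same measurement. The submitters' processing notes name 3 builds with no role, GRCm38, rheMac8 and Mmul_8.0.1. Not given in the sources used here are the aligner, the counting program and its use of strand, so a gene and an antisense partner may share counts.

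Counts were fitted for all genes with edgeR 4.0.16 (R 4.3.3), TMM factors, filterByExpr (count of 10, total of 15), no covariate and Benjamini-Hochberg adjustment. The SE is the log2 fold change divided by the square root of F. Log2 CPM used an added 0.5. Alternatives used DESeq2 1.42.0, limma 3.58.1 and other filters, size factors and library sets. The test was also run on simulated counts, with levels and dispersions taken from these libraries. Figures used Python 3.11.15 and matplotlib 3.10.9. Replicates of each group differed by more than sampling noise (chi-square divided by its degrees of freedom was at least 46.18).

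The members and lists were chosen with earlier results of these data known. Named were all members, and in each of 20 other lists up to 4 called genes or, with none, the gene of smallest p. Departing from this, all called gland markers were named, and BLK alone of the called B cell markers. Other names were chosen after their values were seen. A gene that the rule takes is not reported here. For CXCL1, CXCL6 and PF4V1 the 4 genes of highest correlation were named. No sequence is given because no sequence tables were used here. All 6 member rows were found in the RefSeq table (T2T-MMU8v2.0), which gave gene order only, since its build differs from those named.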

Additional observations from a re-analysis of the deposited data

How the results depend on the processing

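No pairing by replicate number was seen: same-numbered deviations correlated at 0.234, -0.379 and -0.197, and in 1 of 3 pairs a library correlated best with its own number. With 3 libraries a group these correlations cannot exclude pairing. With the replicate number as a block, edgeR called 0 genes, 0 members and 0 of the other listed genes (2866 genes and 3 members had an unadjusted p under 0.05). DESeq2 called 2492 genes, against 287, and 51 of the other listed genes, against 19, while limma-voom called 11 and limma-trend on log2(FPKM + 1) called 10 of those. With each library left out, the calls ran from 0 to 628 over all genes, from 0 to 3 among the members and from 0 to 25 among the other listed genes. The log2 fold change of CXCL17 was -0.04 without control replicate 2 and up to 0.67 with another library left out. CXCL1, CXCL6, PF4V1 and CXCL8 had log2 fold changes above 0 under all 15 alternatives. CXCL1, CXCL6 and PF4V1 were called under the 8 other size factors, filters, tests and units tried, and CXCL8 under DESeq2 alone. The alternatives for the other listed genes were added after the data were seen. The causes were not tested. At 3 libraries a group and up to 65 counts, PF4V1 is limited by counting error, and CXCR1 lay under the floor.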
